A study of Mus musculus with 12 samples.

Results

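The RNA that stayed unbound when RPL10A ribosomes were pulled down from the lateral ventricle choroid plexus (LV ChP) was compared between 9 p.m. and 9 a.m. The members of this comparison are the supernatant libraries of both times, 6 of the 12 libraries in the series, with 3 libraries at each time. All mice were male and carried Foxj1:Cre+/- together with 1 floxed EGFP-L10a allele (EGFP-L10a+/-), so that both times shared the genotype and no sample was treated. The sample labels give an age of postnatal day 60. The light and dark phases lasted 12 h each, food was always available, and 9 a.m. and 9 p.m. lay 2 h after the lights went on and off. Each library was a pool of LV ChP from 3 mice, and different pools were taken at each time. Foxj1-Cre acts in ciliated epithelium, which includes the epithelial cells of the ChP, and recombined cells carry EGFP on the ribosomal protein RPL10A. The antibody to EGFP takes these ribosomes out, and the supernatant keeps RNA of the epithelium that was not pulled down together with RNA of every other cell of the tissue. In such bulk samples, fewer cells of a type and less RNA per cell cannot be told apart.

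The ChP is a sheet of epithelial cells around a stroma of fenestrated vessels, and it secretes cerebrospinal fluid (CSF) and many of its proteins. Its epithelium has a circadian clock. In that clock CLOCK and BMAL1 (the product of Arntl) bind E-box sequences and switch on Per, Cry, Nr1d1, Nr1d2, Dbp and Tef, the PER and CRY proteins block CLOCK and BMAL1 in turn, and the PAR bZIP factors DBP and TEF act on D-box sequences. The comparison asks how transcript levels differed between the times in RNA that was not on tagged ribosomes.

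Values are FPKM, read numbers scaled to gene length and to the mapped reads of a library, which are relative within a library. Read depth is unknown, so no counting error can be given. Genes with an FPKM above 1 numbered 8082, 8275 and 10096 in the 9 a.m. libraries and 8789, 7825 and 10540 in the 9 p.m. libraries, a difference smaller than the spread within a time (p = 0.8 by an exact permutation test, two-sided, which cannot go below 0.1 with 3 libraries a time). MicroRNA genes held 36.5% to 64.2% of the summed FPKM at 9 a.m. and 31.9% to 71.3% at 9 p.m. (exact permutation test, p = 0.9), and protein-coding genes held 34.4% to 59.9% and 27.5% to 65.1% (exact permutation test, p = 0.9). Mir6236 alone had an FPKM of 180187, 254923 and 180755 at 9 a.m. Its 9 p.m. values were 123805, 218227 and 84777. Without Mir6236 in the sum, the mean microRNA share was 29.1% instead of 51.1% at 9 a.m. and 34.2% instead of 48.0% at 9 p.m. Because FPKM is scaled to gene length, these percentages do not measure how much of the unbound RNA was microRNA. Of 3052 genes with a median FPKM above 20, between 0 and 47 were listed at 0 in a library. On log2(FPKM + 1), libraries of the same time correlated across genes at a median r of 0.63 (lowest 0.57, highest 0.71, 6 pairs) and libraries of different times at a median r of 0.63 (lowest 0.55, highest 0.78, 9 pairs). Genes are not independent replicates, and these values describe the libraries only.

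Of 11075 genes tested with limma on log2(FPKM + 1), 0 were called higher and 1 was called lower at 9 p.m., where a call needs a Benjamini-Hochberg adjusted p below 0.05 and a log2 fold change of more than 0.4 either way (background of lower calls 0.00903% of genes tested). The unadjusted p was below 0.05 for 363 genes, or 3.28% of those tested, of which 198 were higher and 165 lower at 9 p.m. All values of one time lay above all values of the other for 543 genes with higher values at 9 p.m. (4.9% of genes tested) and for 420 genes with lower values (3.79%), and these shares are the background for the counts of genes without overlap given for each list. The median log2 fold change over all genes was 0.03, and 51.8% of genes had a higher mean at 9 p.m. The spread within a time depended on level: the median SD on the log2 scale was 1.34 for the 5484 genes with a mean FPKM above 1 and up to 10, 0.81 for 5147 genes up to 100, and 0.39 for 417 genes up to 1000. Above a mean FPKM of 1000 it was 2.06 over 27 genes.

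The gene called lower was Mir546, a microRNA gene. Its mature product has 16 bases on chromosome 10 of GRCm38.p6 from 126998471 to 126998486 on the plus strand according to RefSeq, and it is shown with the seed, bases 2 to 8, in capitals because the seed is the part that pairs with targets.
mmu-miR-546: aUGGUGGCacggaguc
Among 1738 mature entries of the same RefSeq table, 1 name carried this seed, that of mmu-miR-546 itself. The reads of 50 nt were longer than this product, and the values below count reads on the whole gene. The level of the mature microRNA was not measured. The FPKM of Mir546 was 572, 3026 and 2945 in the 9 a.m. libraries, and 0, 0 and 4.58e-24 in the 9 p.m. libraries. All 9 a.m. values were high and all 9 p.m. values were at or next to 0, which gave a log2 fold change of -10.75 (SE 0.60, adjusted p = 9.96e-06, limma). Values this close to 0 come from the estimation of FPKM, and how many reads lie behind the 9 a.m. values is unknown. Its adjusted p was 0.0505 (limma) when low genes were kept, and with any 1 library left out it lay between 3.29e-06 and 0.00205. When the variance was not modelled on level it was 0.0307 (limma), and in 1 fit of all 12 libraries 0.0267 (limma).

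The position of Mir546 bears on what these values count. In GENCODE M21 its gene spans 121 bases of chromosome 10, from 126998440 to 126998560 on the plus strand. It lies inside 1 exon of Ctdsp2, in the 3′ untranslated region of that gene and on the same strand, so that a read from either gene can fall on the same bases. Ctdsp2, which codes for a phosphatase of the RNA polymerase II tail, had an FPKM of 11.5, 0.409 and 5.88 at 9 a.m. and of 17.1, 30.1 and 17.2 at 9 p.m. The host gene thus had its higher values at 9 p.m. and Mir546 at 9 a.m., with no overlap for either gene. The log2 fold change of Ctdsp2, a gene chosen after its values were seen, was 2.13 (SE 0.94), and how reads were divided between the 2 genes was not tested. On the ribosomes, Mir546 was listed at 0, 7.03e-148 and 0 FPKM at 9 a.m. against 0, 260 and 49.2 FPKM at 9 p.m. Its time change in unbound RNA minus that in ribosome-bound RNA was -15.31 on the log2 scale (SE 2.01, adjusted p = 0.0236, limma), the 1 call among 11156 genes tested for this difference, of which 429 had an unadjusted p under 0.05. Without 1 library the call was lost in 10 of 12 fits. With supernatant and TRAP libraries of the same time and number as a block there were 2 such calls, Mir546 and Mrpl52, both at an adjusted p of 0.0451 (limma). Mrpl52, a subunit of the mitochondrial ribosome, is named for that call alone. Its FPKM in unbound RNA was 24.3, 76.9 and 29.8 at 9 a.m. and 1.29, 17.6 and 35.1 at 9 p.m., with overlap, and on the ribosomes 0, 0.541 and 0 against 29.2, 115 and 146.

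Of the 40 microRNA genes tested, 20 had a higher mean at 9 p.m., and their log2 fold changes ran from -10.75 to 6.99. Their median SD within a time was 3.75 on the log2 scale, against 1.12 for the 10699 protein-coding genes tested, and 36 of the 40 were listed at 0 in some library (38.2% of the coding genes were). Besides Mir546, 1 microRNA gene separated the times without overlap, with higher values at 9 p.m.

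The genes of lowest p among those lower at 9 p.m. without overlap included noncoding RNAs. 1300002E11Rik, a long intergenic noncoding RNA on chromosome 16 (21794318 to 21809040, plus strand), had an FPKM of 110, 133 and 46.3 at 9 a.m. and of 0, 0 and 4.40 at 9 p.m. Its log2 fold change was -5.66 (SE 0.86, adjusted p = 0.177, limma), the lowest adjusted p after Mir546, and the gene shares part of its length with Map3k13 on the same strand. Gm20319, an antisense RNA across from part of Il1rap, had an FPKM of 182, 43.9 and 12.5 at 9 a.m. and of 0, 0 and 8.29e-28 at 9 p.m. (log2 fold change -5.59, SE 1.10, adjusted p = 0.577, limma). As the strand setting of the counting is not given in the sources used here, reads of Gm20319 and Il1rap cannot be told apart where they overlap. Scarna13, a small RNA of Cajal bodies within Snhg10, had an FPKM of 734, 288 and 427 at 9 a.m. and of 144, 29.98 and 187 at 9 p.m. These 3 RNAs had all 9 p.m. values below all 9 a.m. values, and none passed the test.

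Among coding genes of that group, Arpc5, a subunit of the ARP2/3 complex that branches actin filaments, had an FPKM of 28.9, 22.1 and 17.0 at 9 a.m. and of 0, 0.0773 and 4.18 at 9 p.m. Myl6, a myosin light chain of non-muscle and smooth muscle cells, had an FPKM of 62.2, 161 and 66.0 at 9 a.m. and of 25.3, 20.7 and 37.3 at 9 p.m. Exosc1, a subunit of the RNA exosome, had an FPKM of 11.9, 22.7 and 12.7 at 9 a.m. and was at 0, 0 and 1.14 at 9 p.m. The others were Acbd6 (15.2 to 83.6 against 0.73 to 5.56), Ppil1 (17.8 to 38.9 against 0 to 4.56) and 3830406C13Rik (20.3 to 48.5 against 0 to 11). Log2 fold changes of these 6 genes lay between -3.88 and -1.65, each with an adjusted p of 0.970 (limma). Fth1, the ferritin heavy chain that stores iron, was chosen after its values were seen because it is abundant. Its FPKM was 1152, 916 and 1023 at 9 a.m. and 650, 374 and 693 at 9 p.m., without overlap, a log2 fold change of -0.89 (SE 0.29). On the ribosomes Fth1 ran the other way without overlap, at 243, 178 and 69.4 FPKM at 9 a.m. and 303, 398 and 368 FPKM at 9 p.m. The difference of its time changes was -2.18 on the log2 scale (SE 0.55, adjusted p = 0.988, limma).

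Dbp and Tef, both clock output genes, were 2 of the 3 genes of lowest p with higher values at 9 p.m. Dbp, which codes for a PAR bZIP factor at the output of the clock, was next to 0 at 9 a.m., at 0.215, 0 and 3.02e-42 FPKM, and at 88.6, 24.9 and 22.9 FPKM at 9 p.m. Its log2 fold change was 5.16 (SE 1.002), but the adjusted p was 0.577 (limma). Tef, a second PAR bZIP factor, had an FPKM of 5.90, 6.33 and 16.7 at 9 a.m. and of 68.8, 85.2 and 49.7 at 9 p.m. The lowest 9 p.m. value of Tef was above the highest 9 a.m. value, with a log2 fold change of 2.80 (SE 0.55, adjusted p = 0.577, limma). Dbp lies on chromosome 7 from 45705088 to 45710203 and Tef on chromosome 15 from 81802421 to 81826863, both on the plus strand of GRCm38. They overlap Sphk2 and the antisense gene Gm17597 on the other strand. Hlf, the remaining PAR bZIP factor, went the other way in its mean, with 17.7, 16.1 and 11.5 FPKM at 9 a.m. and 4.99, 5.10 and 16.6 FPKM at 9 p.m., and the times overlapped.

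In the list of clock output genes, 14 of 16 members tested were higher in their 9 p.m. mean, with a median log2 fold change of 0.54 against 0.03 over all genes, and 4 were without overlap, all higher (background 4.9%). No member passed the test, and 3 had an unadjusted p under 0.05. Besides Dbp and Tef these 4 were Usp2, a deubiquitinase, and Ccrn4l, the deadenylase nocturnin. The FPKM of Usp2 was 55.2, 60.5 and 67.2 at 9 a.m. and 99.5, 122 and 75.3 at 9 p.m. That of Ccrn4l was 0, 2.11 and 3.88 at 9 a.m. and 5.88, 30.2 and 10.6 at 9 p.m. The summed FPKM of the list was 175 to 332 at 9 a.m. and 419 to 450 at 9 p.m., without overlap. With any 1 library left out the median stayed between 0.37 (without 9 a.m. replicate 2) and 0.85 (without 9 a.m. replicate 3).

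Members of the core clock were split. Of 19 tested (21 in the table), 9 had a higher and 10 a lower mean at 9 p.m., with a median log2 fold change of -0.11, and this median took the other sign under 7 of 19 other settings. The 3 members without overlap all had higher values at 9 p.m. (background 4.9%). Per2, whose protein holds back CLOCK and BMAL1, had an FPKM of 3.04, 0.449 and 8.30 at 9 a.m. and of 25.4, 15.1 and 18.2 at 9 p.m. (log2 fold change 2.41, SE 0.94). Nr1d2, which codes for the repressor REV-ERB beta, had an FPKM of 21.1, 23.6 and 9.34 at 9 a.m. and of 32.6, 68.8 and 38.5 at 9 p.m. (1.35, SE 0.54). Per1 had an FPKM of 21.8, 12.7 and 15.9 at 9 a.m. and of 30.6, 36.4 and 24.8 at 9 p.m. (0.84, SE 0.51). For these 3 genes the adjusted p was 0.970 (limma).

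The positive arm of the clock had lower means at 9 p.m. with overlap. Arntl had an FPKM of 7.88, 13.1 and 3.38 at 9 a.m. and of 9.93, 0 and 5.66 at 9 p.m., and Clock had an FPKM of 25.8, 51.2 and 54.1 at 9 a.m. and of 21, 34.6 and 37.9 at 9 p.m. Npas2, a relative of Clock, lay at 0.120 to 7.38 and at 0.0329 to 6.004. Among the repressors, Cry1 (0.949 to 21.6 against 8.33 to 21.9), Cry2 (6.33 to 13.6 against 11.7 to 32.4), Per3 (1.72 to 4.67 against 0.675 to 31.3) and Nr1d1 (7.67 to 30.5 against 7.51 to 10.003) overlapped between the times. So did Rora (7.93 to 20.2 against 3.13 to 17.1), which codes for an activator of Arntl, and Bhlhe40 (3.19 to 13.8 against 7.37 to 27.2) and Bhlhe41 (1.56 to 7.08 against 1.08 to 10.03), which code for repressors. The kinases that phosphorylate PER, Csnk1d (13.8 to 23.4 against 11.5 to 27.2) and Csnk1e (1.09 to 42.0 against 0.819 to 12) overlapped too. Fbxl21, Ciart, Rorb and Timeless were listed at 0 in between 2 and 4 of the 6 libraries.

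**Figure D1:**
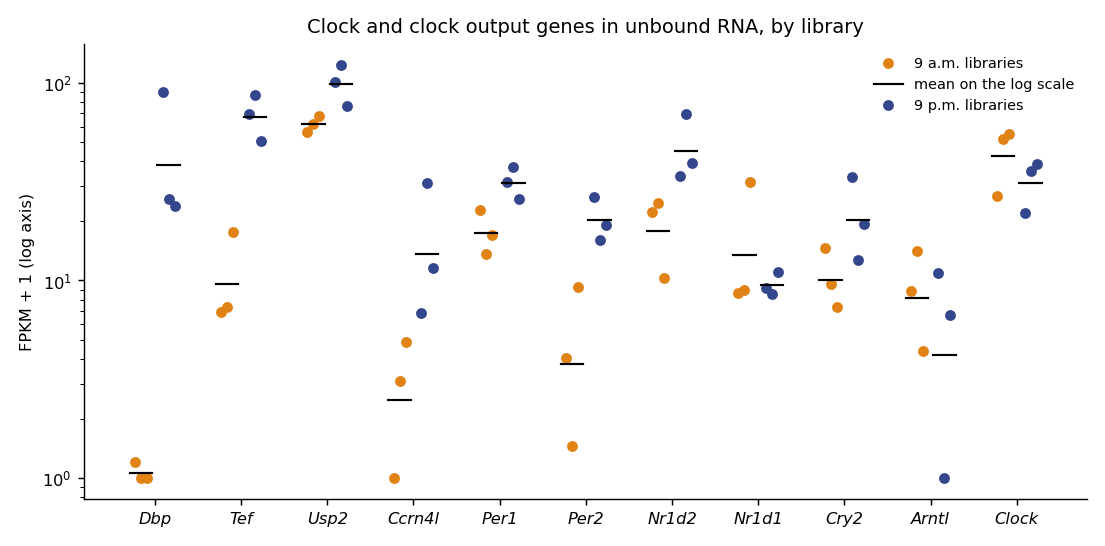
Each dot is the FPKM + 1 (log axis) of a gene in 1 supernatant library, orange for 9 a.m. and blue for 9 p.m., with 3 libraries each, and the black line is the mean on the log scale. For Dbp, Tef, Usp2, Ccrn4l, Per1, Per2 and Nr1d2 every blue dot lies above every orange dot, while for Nr1d1, Cry2, Arntl and Clock the colours overlap.

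On the ribosomes, the differences of Dbp and Tef between the times were 2.55 and 0.78 on the log2 scale. The FPKM of Dbp in TRAP was 0, 11.7 and 79.2 at 9 a.m. and 138, 30.7 and 44.7 at 9 p.m., and that of Tef was 16.4, 22.2 and 36.3 at 9 a.m. and 44.5, 36.2 and 43.7 at 9 p.m. Both overlapped between the times there. The time change in unbound RNA minus that on ribosomes was 2.62 (SE 1.71) for Dbp and 2.03 (SE 0.71) for Tef on the log2 scale, each with an adjusted p of 0.988 (limma), so that a difference between the fractions was not shown. Per2 was at 0.906, 3.12 and 4.05 FPKM at 9 a.m. against 8.94, 6.74 and 15.2 FPKM at 9 p.m. in TRAP, without overlap as in unbound RNA.

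Start regions of some clock genes and of Fkbp5, chosen after their values were seen, were searched for clock motifs, since E-boxes and D-boxes are how the clock reaches its targets. Per2 and the glucocorticoid-induced gene Zbtb16 had no entry among the promoters used and were not searched. The 170 bases before each annotated start in the RefSeq promoter table (GRCm38.p6) were searched on both strands for CACGTG (the E-box of CLOCK and BMAL1), TTATGTAA (a D-box), AGGTCA (a site of ROR and REV-ERB) and the full palindrome of the glucocorticoid response element. An E-box was in 4.67% of all 32851 windows, a D-box in 0.575%, the ROR and REV-ERB site in 9.78% and the glucocorticoid element in 0.00609%. Both starts of Tef had an E-box, at positions -127 and -138 from the start, as had 1 of 2 starts of Per1 and the start of Fkbp5. The windows of Dbp, Usp2 and Ccrn4l (listed as Noct) held none of these motifs, and that of Nr1d2 held a ROR and REV-ERB site, which the first start of Per1 held too. Annotated exons covered all 170 bases of the Tef window with the E-box at -127 and 159 bases of the Dbp window. They covered 21 bases of the Nr1d2 window and 1 base of the first Per1 window. Per3, which overlapped between the times, had a D-box at position -158. Below are windows outside annotated exons, with the motif in capitals, for Tef at its inner start (chr15:81811244-81811413, plus strand), Fkbp5 (chr17:28486150-28486319, minus strand) and Per3 (chr4:151044666-151044835, minus strand).
Tef: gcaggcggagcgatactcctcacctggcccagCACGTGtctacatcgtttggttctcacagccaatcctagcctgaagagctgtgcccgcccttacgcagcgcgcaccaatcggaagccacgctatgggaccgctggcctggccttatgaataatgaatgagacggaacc
Fkbp5: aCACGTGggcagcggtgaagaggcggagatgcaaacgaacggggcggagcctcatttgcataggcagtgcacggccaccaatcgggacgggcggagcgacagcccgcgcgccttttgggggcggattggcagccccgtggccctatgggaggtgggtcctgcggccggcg
Per3: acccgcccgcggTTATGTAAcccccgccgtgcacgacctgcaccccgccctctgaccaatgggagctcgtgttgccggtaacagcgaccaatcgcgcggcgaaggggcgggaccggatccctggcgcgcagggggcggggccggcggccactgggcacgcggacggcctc
A match describes these letters in this window and says nothing of binding. The E-box of Fkbp5 is at position -169.

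Corticosterone of nocturnal rodents peaks around the start of the dark phase, and genes that glucocorticoids induce were a list of their own. Of 17 members tested, 13 had a higher mean, with a median log2 fold change of 0.84, and 4 were without overlap, all higher (background 4.9%). None passed the test, and 2 had an unadjusted p under 0.05. Zbtb16, a transcription factor, had an FPKM of 0, 0.114 and 0 at 9 a.m. and of 6.89, 15.2 and 3.84 at 9 p.m. Fkbp5, a co-chaperone that dampens the glucocorticoid receptor, had an FPKM of 4.39, 4.77 and 2.90 at 9 a.m. and of 15.3, 31.0 and 7.28 at 9 p.m. Sgk1, a kinase that regulates sodium transport, had an FPKM of 38.4, 117 and 103 at 9 a.m. and of 166, 133 and 150 at 9 p.m. These genes and Per1, the remaining member without overlap, which the list shares with the core clock, had log2 fold changes of 0.84 to 3.04 at an adjusted p of 0.970 (limma). Tsc22d3, a classic target of the receptor, was at 0, 0 and 24.9 FPKM at 9 a.m. against 15.4, 0 and 30.2 FPKM at 9 p.m., with overlap. Left-out libraries moved the median between 0.57 and 1.13, and it was 0.45 with library quality weights and 0.47 when low genes were kept. The list shares Klf9, Pdk4 and Cdkn1a with the clock output list and Dusp1 with the immediate early genes.

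The immediate early genes, which respond within minutes to stimulation and to dissection, were higher in their 9 p.m. mean for 10 of 12 members tested, with a median log2 fold change of 1.35. This median was 2.19 with a pseudocount of 0.1, 0.63 with a pseudocount of 5 and 0.69 when low genes were kept. A gene at or near 0 at 9 a.m., as Junb was, passed the filter on the mean of both times only through its 9 p.m. values. The count of higher members and the median are therefore not independent of that filter. None of them was without overlap, none had an unadjusted p under 0.05, and 5 of the 23 listed were at 0 in all 6 libraries. Jund had an FPKM of 1.24, 0.210 and 6.24 at 9 a.m. and of 9.63, 12.4 and 4.98 at 9 p.m. Dusp1 had an FPKM of 0, 1.37 and 5.28 at 9 a.m. and of 23.8, 0.226 and 14.2 at 9 p.m., and Junb was listed at 0 in every library but 2 of 9 p.m. (14.1 and 0.564). The summed FPKM of the list was 10.8 to 31.0 at 9 a.m. and 63.8 to 83.6 at 9 p.m., without overlap. These 3 genes were chosen after their values were seen. Heat shock genes had a median of 0.05, with 10 of 18 higher and none without overlap.

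The proteasome is the complex that degrades ubiquitin-tagged proteins. Of its 31 members tested, 19 had a higher mean, with a median log2 fold change of 0.28, and 9 were without overlap, all higher (background 4.9%). An unadjusted p under 0.05 was reached by 7, all higher, and none passed the test. In the regulatory particle, Psmd6 had an FPKM of 2.90, 14.7 and 36.1 at 9 a.m. and of 66.1, 120 and 49.1 at 9 p.m., and Psmd14, the deubiquitinase of the lid, had an FPKM of 3.08, 7.46 and 13 at 9 a.m. and of 49.2, 34.0 and 24.7 at 9 p.m. In the core particle, Psmb1 had an FPKM of 26.8, 48.3 and 47.7 at 9 a.m. and of 76.3, 89.9 and 126 at 9 p.m., and Psmb3 was at 0, 0 and 8.44 and at 61.9, 9.43 and 21.3. The log2 fold changes of these 4 were 2.50, 2.18, 1.25 and 3.53, at an adjusted p of 0.970 (limma).
The remaining 5 without overlap were Psmd1 (35.3 to 43.3 FPKM at 9 a.m. against 65.3 to 107 at 9 p.m.), Psmd4 (61.5 to 107 against 120 to 177), and the ATPases Psmc3 (27.8 to 84.1 against 88.6 to 139), Psmc4 (22 to 77.7 against 89.7 to 104) and Psmc5 (25.6 to 78.3 against 85.7 to 105). Other subunits of the same complex had lower means, and 12 of 31 did. The summed FPKM of the subunits was 1328 to 1346 at 9 a.m. and 1574 to 1731 at 9 p.m., without overlap. With any 1 library left out the median lay between 0.09 (without 9 a.m. replicate 1) and 0.70 (without 9 a.m. replicate 3).

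Mitochondrial genes spread in both directions. Of 74 subunits of oxidative phosphorylation tested, 47 were higher in their 9 p.m. mean (median log2 fold change 0.22, and -0.01 without 9 a.m. replicate 2), and of those without overlap 3 were higher and 2 lower, against backgrounds of 4.9% and 3.79%. Uqcrb, a subunit of complex III, had the lowest p of all genes with higher values at 9 p.m. Its FPKM was 18.5, 25.3 and 46.2 at 9 a.m. and 200, 106 and 141 at 9 p.m., for a log2 fold change of 2.33 (SE 0.43, adjusted p = 0.577, limma). Atp5l, of the ATP synthase, was at 0, 0.454 and 30.9 FPKM and at 34.5, 32.6 and 77.3 FPKM. In the other direction, Cyc1, also of complex III, had an FPKM of 59.7, 108 and 55.7 at 9 a.m. and of 43.4, 15.6 and 31.9 at 9 p.m., and Cox6a1, of complex IV, had an FPKM of 401, 418 and 367 at 9 a.m. and of 346, 111 and 266 at 9 p.m. Uqcrb and Cyc1, of one complex, thus had means in opposite directions, and none but Uqcrb had an adjusted p below 0.970 (limma). Enzymes of the citric acid cycle had a higher mean for 7 of 21 members and a median of -0.06, with none without overlap. The 28 genes of the mitochondrial genome in the list have no entry in the table.

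Genes of protein synthesis were likewise mixed. Of 54 cytosolic ribosomal proteins tested, 33 were higher in their 9 p.m. mean (median 0.38, and -0.18 without 9 p.m. replicate 3). Without overlap were 3, all higher, a share near the background of 4.9%. Rpl37a was at 0.412, 0 and 0 FPKM at 9 a.m. against 34.0, 7.49 and 21.4 FPKM at 9 p.m., Rpl23a was listed at 0 in all 9 a.m. libraries and at 3.42, 31.3 and 16.7 FPKM at 9 p.m., and Rps2 was at 0, 0 and 0.350 and at 16.8, 51.7 and 0.484. These genes have many near-identical pseudogenes, so that their values are uncertain. Of 74 mitochondrial ribosomal proteins, 39 had a higher mean (median 0.34, and -0.06 without 9 p.m. replicate 3). Mrpl41 (2.47 to 12.2 against 17.4 to 30.1), Mrpl24 (0 to 25.3 against 28.0 to 52.8) and Mrpl35 (5.67 to 9.77 against 13 to 26.8) were without overlap, again a share near the background of 4.9%. Translation factors had a median of 0.11 (22 of 39 higher). Eif5a had 91.6, 113 and 79.0 FPKM at 9 a.m. and 114, 180 and 134 FPKM at 9 p.m., while Eif4b had 96.7, 75.5 and 97.0 FPKM at 9 a.m. and 59.1, 23.5 and 75.1 FPKM at 9 p.m. Eef1d, a subunit of an elongation factor, had 54.3, 46.9 and 48.0 FPKM at 9 a.m. and 37.0, 17.7 and 44.9 FPKM at 9 p.m.

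Of the mTOR and insulin signalling genes, 20 of 32 had a higher mean (median 0.19, and -0.08 without 9 a.m. replicate 1). Of these 32, 3 were without overlap, all higher (background 4.9%). Sesn2, a leucine sensor upstream of mTORC1, was at 0.0646, 5.56 and 2.35 FPKM at 9 a.m. against 11, 17.0 and 9.04 FPKM at 9 p.m. Deptor, an inhibitor of mTOR, was at 12.8, 22 and 17.7 and at 26.6, 29.3 and 25.3 FPKM, and Igf1r, the receptor for insulin-like growth factor 1, at 40.5, 50.8 and 46.8 and at 60.4, 77.9 and 52.2 FPKM. Sesn2 ran the other way on the ribosomes, from 10.7, 11.5 and 20.8 FPKM at 9 a.m. to 4.19, 5.98 and 3.95 FPKM at 9 p.m. The difference of its time changes was 3.56 on the log2 scale (SE 1.17, adjusted p = 0.988, limma). In the list of nucleolar genes 15 of 24 had a higher mean (median 0.16). Ncl, the nucleolar protein nucleolin, had an FPKM of 77.4, 83.9 and 99.9 at 9 a.m. and of 108, 108 and 109 at 9 p.m. The summed FPKM of this list did not overlap, at 538 to 585 and 592 to 690.

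Chaperones and folding enzymes of the endoplasmic reticulum had a median of -0.08, with 9 of 25 higher. Hyou1, a large chaperone, had an FPKM of 52.3, 71.4 and 71.2 at 9 a.m. and of 29.8, 44.0 and 24.0 at 9 p.m. Hsp90b1, a chaperone of secreted proteins, had an FPKM of 1186, 1280 and 1127 at 9 a.m. and of 1075, 927 and 816 at 9 p.m. Both were without overlap and lower at 9 p.m., with log2 fold changes of -1.003 (SE 0.41) and -0.36 (SE 0.24), and both were also lower in their TRAP means (61.1 against 33.1 FPKM, and 1018 against 768 FPKM). Atf4, a transcription factor of the stress response, and Sec61a1, of the protein channel into the endoplasmic reticulum, were without overlap the other way, at 12.6 to 30.01 against 30.8 to 66.2 FPKM and at 2.87 to 26.1 against 28.0 to 56.6 FPKM. The adjusted p of all 4 was 0.970 (limma). The backgrounds without overlap were 4.9% for higher and 3.79% for lower genes.

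The label of the tissue was checked with markers of the ChP epithelium, and those given here were present in every library. Ttr, the thyroid hormone carrier transthyretin, had an FPKM of 37447, 25293 and 21463 at 9 a.m. and of 30323, 23434 and 26441 at 9 p.m., a log2 difference of -0.04 (SE 0.38). Enpp2, which makes lysophosphatidic acid, had an FPKM of 12755, 15966 and 15084 at 9 a.m. and of 15838, 14459 and 16824 at 9 p.m. (0.11, SE 0.32). The 9 a.m. and 9 p.m. values overlapped for both. Kl (585 ± 78.0 against 601 ± 24.9, SD, n = 3), Folr1 (555 ± 118 against 559 ± 90.1), Clic6 (691 ± 106 against 671 ± 36.3), Slc4a5 (146 ± 22.4 against 153 ± 35.8) and Otx2 (186 ± 19.8 against 146 ± 37.7) differed by no more than the spread of 1 time, apart from Otx2, whose difference was larger than 1 SD of either time and whose values overlapped. Over 31 markers tested the median was 0.02 (16 higher), 3 were without overlap, all higher (background 4.9%), and none passed the test. Their summed FPKM was 44463 to 60053 at 9 a.m. and 45721 to 55616 at 9 p.m.

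The 3 epithelial markers without overlap move water and ions across the epithelium, and all had higher values at 9 p.m. Aqp1, the water channel of the apical membrane, had an FPKM of 86.1, 68.1 and 101 at 9 a.m. and of 132, 140 and 118 at 9 p.m. (log2 fold change 0.62, SE 0.31). Kcnj13, a potassium channel, had 581, 641 and 592 FPKM at 9 a.m. and 925, 646 and 756 FPKM at 9 p.m. (0.34, SE 0.25), and Trpv4, a cation channel, had 117, 105 and 135 FPKM and 139, 170 and 150 FPKM (0.36, SE 0.29). None of them passed the test (adjusted p = 0.970, limma). Over the 25 ion and water transport genes tested, which include these 3, 13 had a higher mean and the median was 0.05. Car14, a carbonic anhydrase, was at 121, 49.4 and 61.8 FPKM at 9 a.m. against 198, 146 and 118 FPKM at 9 p.m., so that 1 pair of values overlapped. The sodium transporters Slc4a10 (267 ± 36.7 against 322 ± 38.4) and Slc12a2 (206 ± 55.4 against 219 ± 23.7) overlapped between the times.

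**Figure D2:**
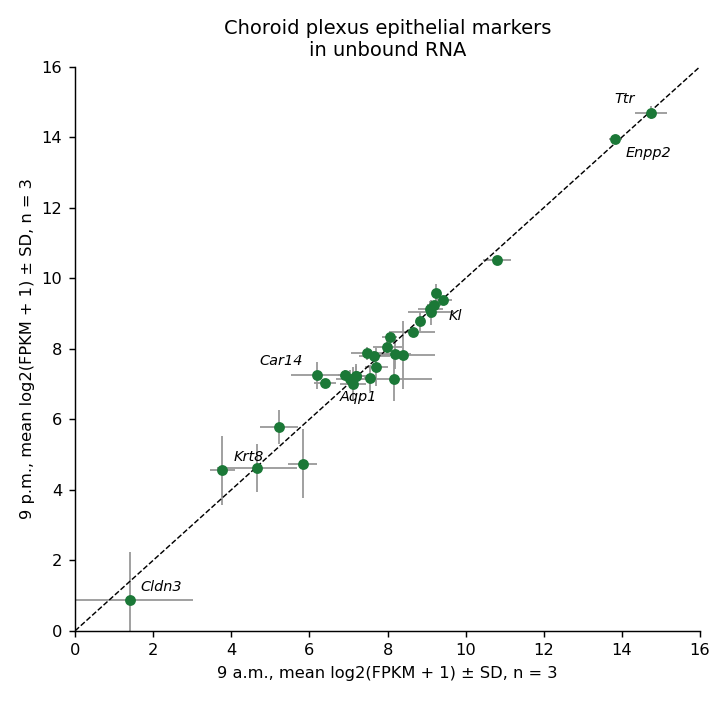
Each point is 1 of 31 markers of the ChP epithelium, placed by its mean log2(FPKM + 1) at 9 a.m. (horizontal) and at 9 p.m. (vertical), with bars of 1 SD over 3 libraries. The points lie along the dashed line of equal level from Cldn3 to Ttr, with Car14 and Aqp1 above it.

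The study drew lists of secreted proteins from its TRAP libraries, and these lists were followed here in the unbound RNA. Their direction in TRAP is fixed by that choice and is no independent evidence. Of the list for 9 p.m., 11 of 11 members had a higher TRAP mean at 9 p.m. (median log2 fold change 0.94), and in unbound RNA 4 of 11 did (median -0.12, against 0.03 over all genes, with the other sign under 4 of 19 other settings). Of the list for 9 a.m., 0 of 18 had a higher TRAP mean at 9 p.m. (median -0.83), and in unbound RNA 10 of 18 did (median 0.12, with the other sign under 2 of 19 settings). No member passed the test of the difference between the fractions (lowest adjusted p = 0.988, limma).

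Adamts1, a metalloprotease, was the member of the 9 p.m. list with the lowest p in unbound RNA. It had an FPKM of 22.1, 13.3 and 29.8 at 9 a.m. and of 38.7, 70.6 and 47.5 at 9 p.m., without overlap (log2 fold change 1.25, SE 0.48, adjusted p = 0.970, limma). Wfikkn2, an inhibitor of growth factors of the TGF-beta family, was the other member without overlap, at 12.5, 9.21 and 9.86 FPKM and at 19.3, 14.6 and 13.8 FPKM. Ttr, with a TRAP change of 0.70 and an unbound change of -0.04 on the log2 scale, gave a difference of -0.74 (SE 0.39, adjusted p = 0.988, limma). Ggh, a folate hydrolase, had 11.2, 90.0 and 73.9 FPKM at 9 a.m. and 32.0, 13.8 and 48.7 FPKM at 9 p.m. in unbound RNA, and Efemp2, an elastic fibre protein, had 15.9, 14.3 and 29.6 and 49.1, 2.13 and 33.1 FPKM. The remaining members, Sil1 (54.2 ± 15.5 against 49.5 ± 11.2), Cxadr (44.5 ± 21.1 against 40.8 ± 25.7), Lbp (298 ± 85.8 against 237 ± 71.0), Ctsl (250 ± 170 against 195 ± 57.9), Aldoa (491 ± 103 against 647 ± 49.4) and Mfge8 (137 ± 23.9 against 164 ± 10.6), overlapped between the times.

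Of the 9 a.m. list, Hsp90b1 and Thbs1 were without overlap, and in opposite directions. Thbs1, thrombospondin 1, had 23.8, 19.1 and 22.9 FPKM at 9 a.m. and 25.5, 32.8 and 24.1 FPKM at 9 p.m. Alb and Apoc1, genes known from the liver, varied widely within a time, at 1.38, 13.7 and 0 and at 89.0, 23.2 and 1.34 FPKM for Alb and at 108, 0 and 2.03 and at 59.7, 18.3 and 34.0 FPKM for Apoc1. Cpe (54.5 to 158 against 0.571 to 88.8) and Ifi30 (31.5 to 150 against 0 to 151) had lower means at 9 p.m. and overlapped. Hspa5 (422 ± 91.5 against 301 ± 108), Pdia3 (195 ± 27.5 against 167 ± 58.6), Trf (151 ± 14.6 against 172 ± 19.6), Heg1 (134 ± 29.8 against 172 ± 31.6), Gpc4 (30.7 ± 7.64 against 52.9 ± 33.1) Kl (above) and Lamb1 (50.5 ± 19.5 against 44.4 ± 13.2) overlapped between the times. So did Lama5, Serpine2, Itih5, Epdr1 and Glb1l2, whose means at both times lay between 4.76 and 18.4 FPKM. Hp was listed at 0 in 5 of the 6 libraries and was not tested.

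The 9 genes of barrier and trafficking that the paper follows in TRAP had a median of -0.31 in unbound RNA, with 3 of 9 higher in their mean. In TRAP 1 of 9 was (median -0.97), by the study's own choice of genes. Itgb8, an integrin subunit, was without overlap in both fractions. Its FPKM in unbound RNA was 116, 134 and 127 at 9 a.m. and 83.9, 94.8 and 86.0 at 9 p.m., and on ribosomes 132, 138 and 124 at 9 a.m. and 53.0, 48.1 and 61.8 at 9 p.m. The log2 fold change was -0.50 (SE 0.29) in unbound RNA and -1.26 on ribosomes, and their difference was 0.76 (SE 0.40, adjusted p = 0.988, limma). The cadherin Cdh3 (44.9 ± 13.7 against 27.8 ± 9.11), the amino acid transporter Slc7a8 (43.4 ± 6.13 against 35.8 ± 12.4), Abcf3 (14.2 ± 8.53 against 11.7 ± 12), the sorting nexin Snx12 (34.7 ± 24.7 against 27.8 ± 24.3) and Chmp1b, of the ESCRT-III complex (19.2 ± 8.32 against 27.4 ± 25.4), overlapped. So did the zinc transporters Slc30a1 (12.8 ± 8.47 against 18.8 ± 3.14), Slc30a5 (32.9 ± 18.3 against 34.9 ± 15.5) and Slc39a9 (21.7 ± 9.56 against 22.5 ± 12.6). The summed FPKM of the 9 genes was 310 to 387 at 9 a.m. and 282 to 305 at 9 p.m., without overlap. Itgb8 had the highest values of the 9 and was the only member without overlap. This sum therefore rests largely on Itgb8 and does not describe the set as a whole. Without 9 a.m. replicate 2 the median was 0.16.

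**Figure D3:**
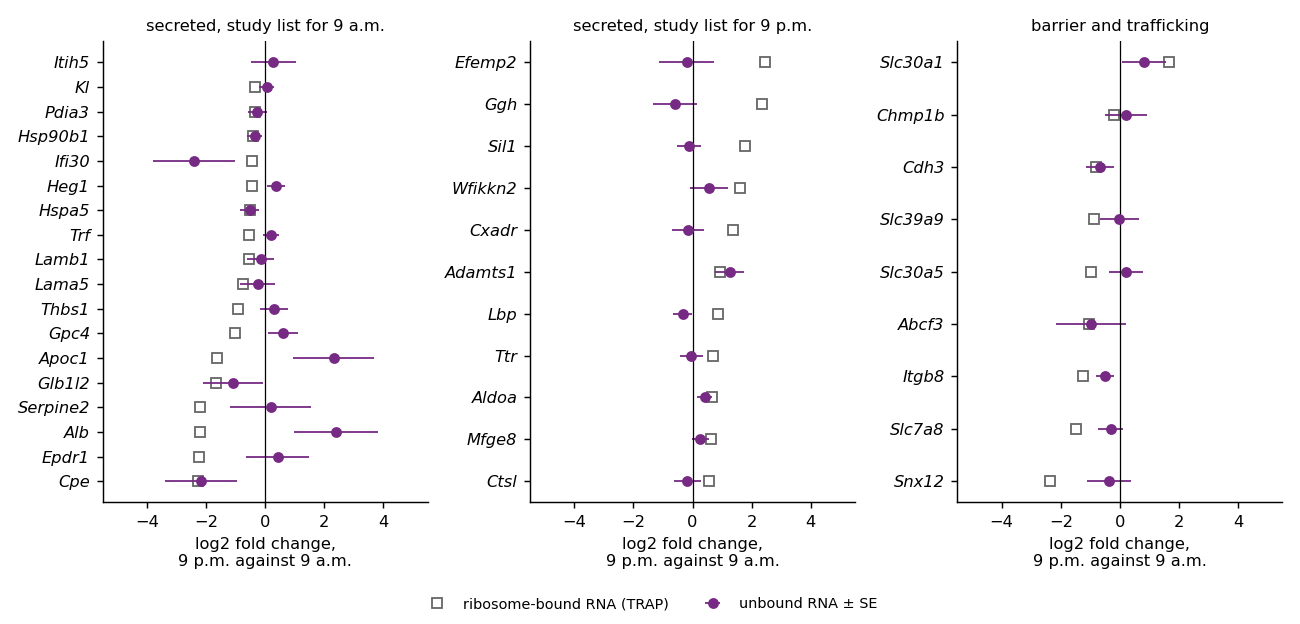
Filled circles give the log2 fold change between 9 p.m. and 9 a.m. in unbound RNA with 1 SE on log2(FPKM + 1), and open squares the same change on ribosomes, for genes of the secreted lists that the study drew from TRAP and for the barrier and trafficking genes it names. The squares lie on 1 side of 0 in the panels of the secreted lists, as the lists were chosen for, while the circles of unbound RNA lie on both sides.

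In the wider list of endocytosis and vesicle genes, 13 of 34 tested were higher in their 9 p.m. mean, with a median of -0.28 that stayed between -0.34 and -0.05 (without 9 p.m. replicate 1) with any 1 library left out, and that was -0.04 with library quality weights. The 3 members without overlap were Cltc, Dnm2 and Rab5a. Cltc, the clathrin heavy chain, had 111, 94.4 and 109 FPKM at 9 a.m. and 149, 150 and 163 FPKM at 9 p.m., and Dnm2, the GTPase that cuts off coated vesicles, had 11.5, 10.9 and 27.0 FPKM and 28.0, 39.1 and 36.9 FPKM. Rab5a, of early endosomes, had 19.3, 27.0 and 17.9 FPKM and 15.9, 8.11 and 17.8 FPKM. The first 2 were higher (background 4.9%) and Rab5a lower (background 3.79%) at 9 p.m. Junction genes had a median of -0.07 (11 of 23 higher), with none without overlap.

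Cells other than the epithelium gave weak and uneven signals. Of the glial markers, 3 of 12 tested were higher in their 9 p.m. mean (median -0.78, from -0.46 without 9 p.m. replicate 3 to -1.11 without 9 p.m. replicate 1, and -0.16 for genes of a mean FPKM above 5), and 3 were without overlap, all lower (background 3.79%). These were the glutamate transporters Slc1a3 (6.61, 8.21 and 7.18 FPKM at 9 a.m. against 3.74, 0.0327 and 0.731 at 9 p.m.) and Slc1a2 (3.38, 9.998 and 18.0 against 2.94, 2.04 and 1.52), and Aldh1l1 (9.08, 7.70 and 13.5 against 6.27, 0.0454 and 4.81). Mbp, of myelin, was at 8.33, 27.6 and 14.3 FPKM and at 7.51, 24.8 and 12.8 FPKM. The summed FPKM of glial markers was 89.5 to 139 at 9 a.m. and 42.9 to 120 at 9 p.m., and 3 of 15 markers were at 0 in all 6 libraries. Of the pericyte and smooth muscle markers, 1 of 6 tested had a higher mean (median -0.87, from -0.31 without 9 p.m. replicate 2 to -1.24 without 9 p.m. replicate 3). Other settings put this median between -2.27 and -0.47. Tagln, of the smooth muscle cytoskeleton, had 7.79, 32.0 and 2.42 FPKM at 9 a.m. and 0, 0 and 0.0557 FPKM at 9 p.m., while Acta2 (1.61, 18.9 and 0.431 against 2.16, 0 and 2.66) and Pdgfrb (13.3, 5.18 and 4.35 against 0, 9.87 and 2.19) overlapped. Their sums were 17.2 to 67.3 and 5.08 to 28.0 FPKM. Whether tissue composition has a part in the values of other genes was not tested.

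Blood and immune genes were low and near 0 in several libraries. Hbb-bs, a beta globin, had 1.09, 0 and 0 FPKM at 9 a.m. and 41.8, 43.9 and 11.3 FPKM at 9 p.m. (log2 fold change 4.49, SE 1.04, adjusted p = 0.970, limma). Hba-a2 was listed at 0 FPKM at 9 a.m. against 0.374, 62.3 and 0 FPKM at 9 p.m., and Hba-a1 lay at or next to 0 in all 6 libraries. The globins share near-identical copies, so that their values are uncertain, and of the erythroid list 2 of 8 in the table were tested. Its summed FPKM was 0.0811 to 3.64 at 9 a.m. and 12.8 to 106 at 9 p.m. C1qa, a complement subunit made by macrophages, had 0, 0 and 1.06 FPKM at 9 a.m. and 14.9, 34.7 and 5.26 FPKM at 9 p.m. (3.58, SE 1.14, adjusted p = 0.970, limma). The genes of its partner chains, C1qb (0, 0 and 0.972 against 0, 0 and 10.3) and C1qc (0, 0 and 0 against 0, 25.8 and 1.81), overlapped, Ptprc was at 0 in 4 of 6 libraries, and 5 of 9 immune markers tested had a higher mean (median 0.41, and -0.11 without 9 p.m. replicate 1). The sums of the immune markers were 21.7 to 139 and 52.3 to 82.0 FPKM.

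Fibroblast markers had a median of -0.30 (5 of 13 higher; 0.28 without 9 a.m. replicate 1) with sums of 141 to 476 FPKM at 9 a.m. and 218 to 269 at 9 p.m. Col1a1 had 6.66, 13 and 3.94 FPKM at 9 a.m. and 0.750, 4.13 and 3.53 FPKM at 9 p.m., and Col6a2 was at 0 in all 9 a.m. libraries and at 10.02, 0.0371 and 1.29 FPKM at 9 p.m. Endothelial markers had a median of -0.49 (4 of 9 higher; 0.16 without 9 a.m. replicate 1; sums 13 to 153 and 19.3 to 26.3), with Pecam1 at 3.31, 0 and 0.591 and at 0, 7.59 and 1.03 FPKM, and neuronal markers a median of -0.50 (2 of 6 higher; 0.48 without 9 p.m. replicate 1; sums 6.40 to 46.3 and 11.6 to 32.6), with Snap25 at 2.4, 0 and 0 and at 5.42, 0 and 3.41 FPKM. Hepatocyte markers, of which 9 of 22 were at 0 in all 6 libraries, had a higher mean for 7 of 9 tested (median 0.98), but the median was -1.11 without 9 p.m. replicate 1, and their sums were 15.6 to 124 and 35.7 to 229 FPKM. Tat, a liver enzyme, was the member without overlap, at 9.11, 1.16 and 1.83 FPKM and at 0.434, 0 and 0 FPKM. Ciliated ependymal markers had a median of 0.12 (6 of 12 higher). Foxj1, the gene whose promoter drives Cre here, had 42.8, 57.6 and 46.9 FPKM at 9 a.m. and 50.6, 23.4 and 55.8 FPKM at 9 p.m.

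**Figure D4:**
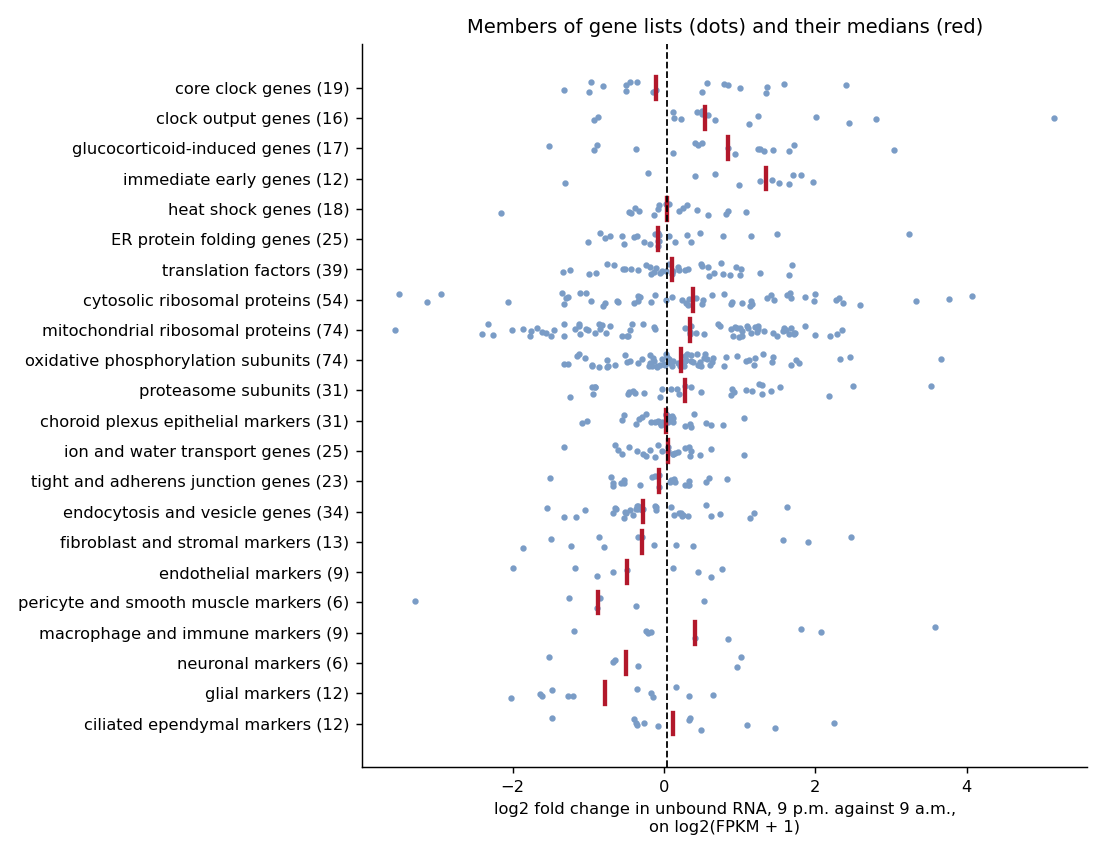
Blue dots are the log2 fold changes between 9 p.m. and 9 a.m. in unbound RNA of the members tested of 22 gene lists (number tested in parentheses), red bars are list medians, and the dashed line is the median of all genes, 0.03. The medians of immediate early (1.35), glucocorticoid-induced (0.84) and clock output genes (0.54) lie to the right of the line and those of pericyte (-0.87) and glial markers (-0.78) to the left, with members on both sides in each list. When low genes were kept, the median of the immediate early genes was 0.69.

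Thyroid hormone handling genes had a median of 0.08 (6 of 10 higher), and snoRNA host genes one of -0.04 (5 of 10), which ran from -1.25 without 9 p.m. replicate 3 to 1.12 without 9 a.m. replicate 3. Replication-dependent histone genes had a median of -0.12 (8 of 18 higher; 0.99 without 9 a.m. replicate 3 and 0.23 without 9 a.m. replicate 1), and Hist2h4 was at 0 in all 9 a.m. libraries and at 17.2, 5.07 and 0.852 FPKM at 9 p.m. Nuclear long noncoding RNAs had a median of -0.17 (2 of 6 higher; 0.09 without 9 a.m. replicate 1). Neat1, the RNA of paraspeckles, had 114, 148 and 98.0 FPKM at 9 a.m. and 94.1, 67.9 and 45.8 FPKM at 9 p.m., without overlap (log2 fold change -0.82, SE 0.36, adjusted p = 0.970, limma). Of the 3 cold-inducible genes with an entry, 2 were tested and 1 was higher. Over the 35 lists with members in the table, the summed FPKM did not overlap between the times for 6, with higher sums at 9 p.m. for clock output, immediate early, proteasome, erythroid and nucleolar genes and lower sums for the barrier and trafficking genes. A sum without overlap corresponds to p = 0.1 in an exact two-sided permutation test, the lowest value possible with 3 libraries a time. No background share was computed for such sums. Some rest largely on few members, such as Itgb8 for the barrier genes and Hbb-bs and Hba-a2 for the erythroid genes. These sums are therefore no result about whole groups of genes.

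Outside the lists, Anapc13, a subunit of the anaphase-promoting complex, had 27.1, 89.4 and 120 FPKM at 9 a.m. and 586, 312 and 236 FPKM at 9 p.m. Blvrb, a biliverdin reductase, had 0, 0 and 0.701 FPKM and 21.8, 18.6 and 28.6 FPKM, and Adh5, the dehydrogenase that clears formaldehyde, had 4.01, 1.73 and 9.47 FPKM and 38.8, 36.2 and 27.9 FPKM. All 9 p.m. values of these 3 were above all 9 a.m. values. The other genes among the lowest p values with higher levels at 9 p.m. were Dph3 (0.0512 to 1.79 against 17.1 to 78.3), which serves the synthesis of diphthamide, Slc35f3 (0 to 2.94 against 15.7 to 30.4) and Cuta (6.18 to 54.8 against 94.9 to 228). Log2 fold changes of these 6 ran from 2.38 to 4.31, with SEs of 0.52 to 1.01 and an adjusted p of 0.970 (limma). Dph3 and Anapc13 overlap neighbours on the other strand, Oxnad1 and Cep63, and Cuta overlaps Phf1.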

How the data were processed

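RNA sequencing libraries of unbound RNA (supernatant) and of RPL10A-bound RNA (TRAP) were analysed, 3 per time and fraction. Single-end 50-nt reads from ribodepleted SMARTer Pico libraries were mapped by the authors to mm10 with STAR 2.4.0 and deposited FPKM computed with Cuffquant; not given in the sources used here are the version of Cufflinks, the annotation and the use of strand. The deposited FPKM are scaled to gene length and mapped reads. Depth is unknown and whole reads could not be recovered, so the precision rests on the spread between libraries.

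Of 24354 entries, 27 whose names had become dates were dropped, and 10387 of the 24327 genes kept were at 0 in all supernatant libraries. Names of 23954 genes (98.5%) matched GENCODE M21 (GRCm38). Groups came from the sample labels. No libraries held identical values.

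Genes whose FPKM averaged above 1 in the compared libraries were tested on log2(FPKM + 1) with limma 3.58.1 in R 4.3.3, with an intensity trend and Benjamini-Hochberg adjustment, at the study's thresholds for time. Fold changes on this scale understate those of low genes. A gene near 0 at 1 time can pass the filter through the other time alone, which bears on the counts and medians of lists with low members. Differences between fractions were tested as an interaction over all 12 libraries, and single values with exact two-sided permutation tests. The limma script was tested on simulated data. In the labels, a TRAP and a supernatant library of each time carry the same number, and whether they come from the same pool is not stated there. Such pairs did not deviate together from their group means (correlations -0.0751 to -0.0144). Fits with this number as a block were alternatives. Replicates are separate pools.

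Named genes were those called, the 10 of lowest p without overlap in each direction, up to 4 such members of each list, all core clock genes and genes the paper names, and defining markers of cell types. Ctdsp2, Fth1, Car14, Hlf, Klf9, Tsc22d3, Junb, Dusp1, Jund, Psmd1, Psmd4, Psmc3, Psmc4, Psmc5, Hba-a2, C1qb, C1qc, Pdgfrb, Slc4a10, Slc12a2 and Mrpl52 were chosen after their values were seen. A few genes named by these rules are not reported here. Members and lists were chosen with earlier results of these data known. Alternatives covered the pseudocount, filter, scaling, trend, robust and weighted fits, the block and left-out libraries. Plots used Python 3.11.15 and matplotlib 3.10.9.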

Additional observations from a re-analysis of the deposited data

Results flagged for a closer look

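Mir546 stood out because its change between the times differed between the fractions in a test of that difference itself. Its log2 change in unbound RNA minus that on ribosomes was -15.31 (SE 2.01, adjusted p = 0.0236, limma). All 3 unbound libraries of 9 p.m. lay below all 3 of 9 a.m., and 2 of 3 TRAP libraries of 9 p.m. lay above all 3 of 9 a.m. The number of reads behind these values is unknown, and their division between Mir546 and Ctdsp2 was not tested.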

How the results depend on the processing

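In unbound RNA the count of genes called lower was 0 with no filter on low values, 0 with coding genes alone rescaled, and 2 with quantile normalization, which added 1300002E11Rik. Leaving out 1 library gave 1 to 4 calls; the 4, without 9 p.m. replicate 3, were 1300002E11Rik, Ccpg1os, Mir546 and Mir703. The count of genes called higher was 0 under every alternative run. The adjusted p of Mir546 ran from 1.36e-07 to 0.0505 (limma). With the replicate number as a block the count of unbound calls was 1. Deviations of same-numbered 9 a.m. and 9 p.m. libraries were uncorrelated (0.003 to 0.07). Those of same-numbered supernatant and TRAP libraries of a time were uncorrelated too (-0.0751 to -0.0144). This check therefore cannot show whether the numbers pair the libraries. For the difference between the fractions, the count of calls lower was 0 with a pseudocount of 0.1, with no filter, with coding genes alone, without the trend and with the robust fit, and 2 with the replicate block. Leaving out 1 library gave 0 to 1 calls: the call of Mir546 was lost without any 1 of the 9 a.m. libraries or of the 9 p.m. supernatant libraries, and without 9 p.m. TRAP replicate 3, where Scarna17 was called instead. The causes were not tested. Without Mir6236, the 9 p.m. minus 9 a.m. difference was 5.13 percentage points for the microRNA share (p = 0.7, exact permutation test) and -3.36 for the coding share (p = 0.8, exact permutation test). Leaving out 1 library gave -510.667 to 872.833 for genes with an FPKM over 1, -14.8 to 4.90 for the microRNA share and -4.001 to 14.8 for the coding share. Each alternative refitted all genes that passed its filter, and the direction of change was compared for 74 named genes that were called or without overlap. Leaving out a library cannot turn the direction of these 74, so that this says nothing of stability. The other named genes were not in this count of directions. The list median took the other sign without some 1 library in 23 of 35 lists, namely core clock, cold-inducible, heat shock, mTOR, both ribosomal protein lists, oxidative phosphorylation, citric acid cycle, epithelial, transport, thyroid, barrier, both secreted, junction, nuclear noncoding, snoRNA host, histone, hepatocyte, fibroblast, endothelial, immune and neuronal genes; the 12 others included the clock output, glucocorticoid-induced, immediate early, proteasome, endocytosis, pericyte and glial lists. Unknown depth and 3 libraries per time limit all of these values.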
